A study of Saccharomyces cerevisiae with 8 samples.

Results

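The experiment described here is the genotype by hygromycin B interaction of a budding yeast RNA-seq study, that is, the hygromycin B response of a trm2 knockout minus that of the wild type, gene by gene. Its members are all 8 libraries and the 6439 genes averaging 1 FPKM or more (fragments per kilobase of transcript, scaled to library size), of 7127 features in the table. Each gene was sorted by whether its response was called in both genotypes or only in 1 of them, and, where both were called, by whether the responses ran the same way or opposite ways and which was larger. The 4 groups had 2 biological replicates each: Trm2KO with 50 µg/mL hygromycin B, Trm2KO without it, WT with 50 µg/mL hygromycin B, and WT without it, all in the strain BY4741 and grown in YPD, a rich glucose medium. BY4741 is a haploid a-mating laboratory strain. Per the labels' protocols, Trm2KO cultures also had 200 µg/mL Geneticin, for which no mention is made in WT, so the deletion and this drug cannot be told apart in any difference between the genotypes. Geneticin is, like hygromycin B, an aminoglycoside. The protocols name an OD600 of 0.4 for hygromycin B cultures and 0.6 to 0.8 for the others, so culture density at harvest and hygromycin B cannot be told apart. Below, treated and untreated mean with and without hygromycin B.

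Trm2 is the methyltransferase that makes 5-methyluridine in the T loop of tRNAs, a modification found from bacteria to humans. Hygromycin B binds the small ribosomal subunit and slows translocation, the step in which the ribosome moves along the mRNA by a codon. Inhibited elongation is known to alter the transcription and decay of many yeast mRNAs, among them those of ribosome synthesis, the general stress response and nutrient uptake. The question put to these data is for which mRNAs the response to the inhibitor depended on the genotype.

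TRM2 (YKR056W) was listed at 0 in all 4 Trm2KO libraries, against 158 and 152 normalised FPKM in treated WT and 116 and 122 in untreated WT. Normalised FPKM are FPKM divided by a median-of-ratios factor per library. The 2 libraries of a group had a median absolute log2 difference of 0.0576 to 0.13 over genes. On the first principal component, which held 73% of the variance, the treated WT libraries lay at 72.0 and 64.5 while the remaining 6 ranged from −34 to −15.4. The share of a library's FPKM sum held by rDNA features ran from 2.01% to 19.3% and differed within groups. Among markers of a cells, STE2, STE6, BAR1, ASG7 and AGA2 were present in every library and MFA1 and MFA2 were listed at 0, while of 4 markers of alpha cells MF(ALPHA)1 lay between 0.455 and 1.78 normalised FPKM, STE3 between 2.36 and 5.76, MF(ALPHA)2 between 7.93 and 12.7, and SAG1 between 23.2 and 30.1. SAG1 lay above the a-cell gene ASG7 in all 4 Trm2KO libraries, where ASG7 was at 18.7 to 22.5. LEU2, URA3 and MET17, which are deleted in BY4741, were listed at 0 in all libraries. HIS3, the other marker of this strain, is not wholly deleted in it and was at 34.4 to 54 in all of them.

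The interaction was called for 4152 of the 6439 genes, 64.5% of those tested, in limma's test at an adjusted p under 0.05. It was higher in 1972 genes (30.6%), where the Trm2KO response lay above that of WT, and lower in 2180 (33.9%). For 1303 genes (20.2%) it was called and at least 2-fold. Higher genes made up 47.5% of the calls, against 30.1% of the 469 calls made with FPKM as deposited, where no library scaling was applied. Hygromycin B was called to change 2778 genes in Trm2KO, 43.1% of those tested, with 1343 up (20.9%) and 1435 down (22.3%). In WT it was called for 5071 genes, or 78.8%, with 2599 up (40.4%) and 2472 down (38.4%). The spread of the responses differed with these counts: the SD over genes of the log2 response was 0.463 in Trm2KO and 1.14 in WT. The median size was 0.236 and 0.652 on the same scale. The median standard error was 0.0791 for either, because 1 spread per gene was pooled over the 4 groups. Replicates were less alike in treated WT (median absolute log2 difference 0.13) than in treated Trm2KO (0.0576). All log2 values are differences of log2(normalised FPKM + 1), which understates the change of low genes.

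Genes called in both genotypes mostly moved the same way and less far in Trm2KO. Of the 4152 genes, 1380 (21.4% of all tested) were called in both with the same direction and a smaller response in Trm2KO, with a median size of 0.393 in Trm2KO and 1.16 in WT. Another 2113 genes (32.8%) were called in WT only, with a median size of 0.11 in Trm2KO and 0.828 in WT. The reverse order was uncommon: 63 genes (0.978%) had the larger response of the same direction in Trm2KO, and 215 (3.34%) were called in Trm2KO only. Opposite directions, both called, were found in 324 genes (5.03%), of which 130 were up in Trm2KO and down in WT, and 194 were down in Trm2KO and up in WT. The remaining 57 (0.885%) had a called interaction without a called response in either genotype. With libraries weighted by quality, 1632 genes were called in WT only and 270 in Trm2KO only. Leaving out any of the 4 Trm2KO libraries brought the count of opposite genes to 127 to 192 and that of smaller responses to 695 to 893. Genes called in Trm2KO only then numbered 112 to 147.

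**Figure D1:**
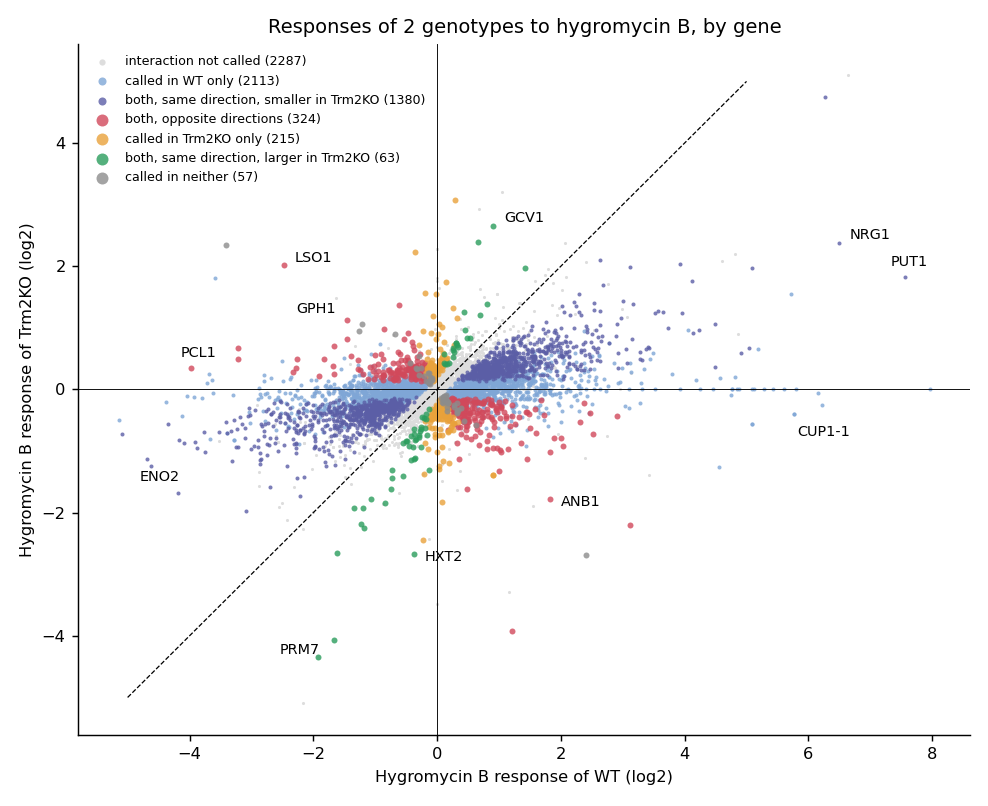
Each point is 1 of the 6439 genes; the vertical axis gives its hygromycin B response in Trm2KO and the horizontal axis that in WT, both log2, and colours mark the response classes with their counts. The dashed line marks equal responses; most coloured points lie between it and the horizontal axis, where the Trm2KO response is the smaller.

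The libraries behind the 2 responses are separate, so the Trm2KO response can be read against bins of the WT response. The 763 genes with a WT response between −2 and −1 had a median of −0.317 in Trm2KO and −1.28 in WT, and 370 of them were called down in Trm2KO, against 17 called up. The 52 genes that fell by more than 3 in WT had a median of −0.594 in Trm2KO and −3.47 in WT. On the other side, the 737 genes with a WT response of 1 to 2 had a median of 0.271 in Trm2KO and 1.32 in WT, and 340 were called up and 32 down in Trm2KO. The 79 genes at 3 or more in WT had a median of 0.365 in Trm2KO and 4.19 in WT. The median Trm2KO response thus did not scale with the WT response among the most induced genes: it was 0.446 over the 162 genes with a WT response of 2 to 3. Of the most induced bin, 30 genes were called up in Trm2KO and 1 was called down. Across genes the responses had a Pearson correlation of 0.488 and a Spearman correlation of 0.564, given as a description over 6439 genes that share libraries.

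The genes of the opposite class described first were taken by the size of the interaction, passing over unnamed reading frames such as YLR410W-B (3.89) and YER175W-A (−5.13). LSO1, a small protein whose transcription rises with iron deprivation, had 26.1 and 14.3 normalised FPKM in treated Trm2KO and 2.67 and 5.89 in untreated Trm2KO, against 2.51 and 4.21 in treated WT and 18.1 and 28.5 in untreated WT. Its treated Trm2KO and untreated WT libraries were the high ones, and neither pair overlapped its counterpart. The response was 2.02 ± 0.42 in Trm2KO and −2.47 ± 0.42 in WT (log2 ± SE), and the interaction 4.49 ± 0.60 (adjusted p = 0.000879).

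PCL1, a G1 cyclin of the Pho85 kinase, had 92 and 97.5 normalised FPKM in treated Trm2KO and 71.2 and 77.6 in untreated Trm2KO, against 4.26 and 5.19 in treated WT and 88.0 and 89.2 in untreated WT. Treated WT alone was low, and the Trm2KO response was 0.35 ± 0.09 against −3.97 ± 0.09 in WT. TDH1, a glyceraldehyde-3-phosphate dehydrogenase, had 72.5 and 76.0 in treated Trm2KO and 51.4 and 53.1 in untreated Trm2KO, against 29.4 and 31.9 in treated WT and 328 and 263 in untreated WT. Its levels in the 4 groups were thus all apart, with a Trm2KO response of 0.50 ± 0.10 and a WT response of −3.22 ± 0.10. FDO1, which acts with Fkh1 in the choice of donor for mating-type switching, had 60.4 and 61.4 in treated Trm2KO and 41.8 and 44.6 in untreated Trm2KO, against 7.38 and 7.29 in treated WT and 38.1 and 39.5 in untreated WT, with an interaction of 2.74 ± 0.08. RPS22B, a protein of the small ribosomal subunit, had 956 and 937 in treated Trm2KO and 741 and 742 in untreated Trm2KO, against 112 and 124 in treated WT and 609 and 548 in untreated WT. Its interaction was 2.63 ± 0.10, and the snoRNA gene SNR44 lies on the same strand within it over 211 bases. MLO50 (YLR049C) went the same way as these, with an interaction of 2.62 ± 0.11. TDH1 and RPS22B have close paralogs among which RSEM divides reads, so their values are uncertain.

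Of the genes lower in Trm2KO and higher in WT with hygromycin B, ANB1, a form of the translation factor eIF5A made when oxygen is low, had 9.20 and 9.17 normalised FPKM in treated Trm2KO and 31.0 and 37.0 in untreated Trm2KO, against 153 and 138 in treated WT and 42.3 and 37.9 in untreated WT. The untreated groups lay close together, at a Trm2KO minus WT difference of −0.24 (adjusted p = 0.105), and the treated groups moved apart by −3.84. Its responses were −1.77 ± 0.10 in Trm2KO and 1.83 ± 0.10 in WT, with an interaction of −3.60 ± 0.14 (adjusted p = 1.48e-05). HYP2, the near-identical eIF5A gene used in air, was listed at 0 in all libraries, so the split of reads between these genes is uncertain. DUR1,2, the urea amidolyase, had 8.90 and 8.61 in treated Trm2KO and 12.6 and 11.7 in untreated Trm2KO, against 107 and 122 in treated WT and 14.5 and 14.2 in untreated WT. Treated WT alone was high, and the Trm2KO response of −0.43 ± 0.08 was small beside that of 2.91 ± 0.08 in WT. MAL33, a maltose-responsive activator with close relatives, had 11.9 and 10.7 in treated Trm2KO and 19.0 and 19.7 in untreated Trm2KO, against 260 and 219 in treated WT and 38.4 and 43.4 in untreated WT. MPC3, a subunit of the mitochondrial pyruvate carrier in respiring cells, had 43.1 and 39.0 in treated Trm2KO and 61.6 and 83.7 in untreated Trm2KO, against 553 and 406 in treated WT and 132 and 122 in untreated WT. The interaction was −3.25 ± 0.15 for MAL33 and −2.69 ± 0.26 for MPC3. COS111, needed for resistance to ciclopirox olamine, had an interaction of −2.84 ± 0.18. The snoRNA snR45 had 8.66 and 13.6 in treated Trm2KO and 89.1 and 32.3 in untreated Trm2KO, against 205 and 140 in treated WT and 10.8 and 31.6 in untreated WT. Its replicates differed widely, and its interaction was −5.33 ± 0.88 (adjusted p = 0.0021) in libraries selected for poly(A) RNA.

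**Figure D2:**
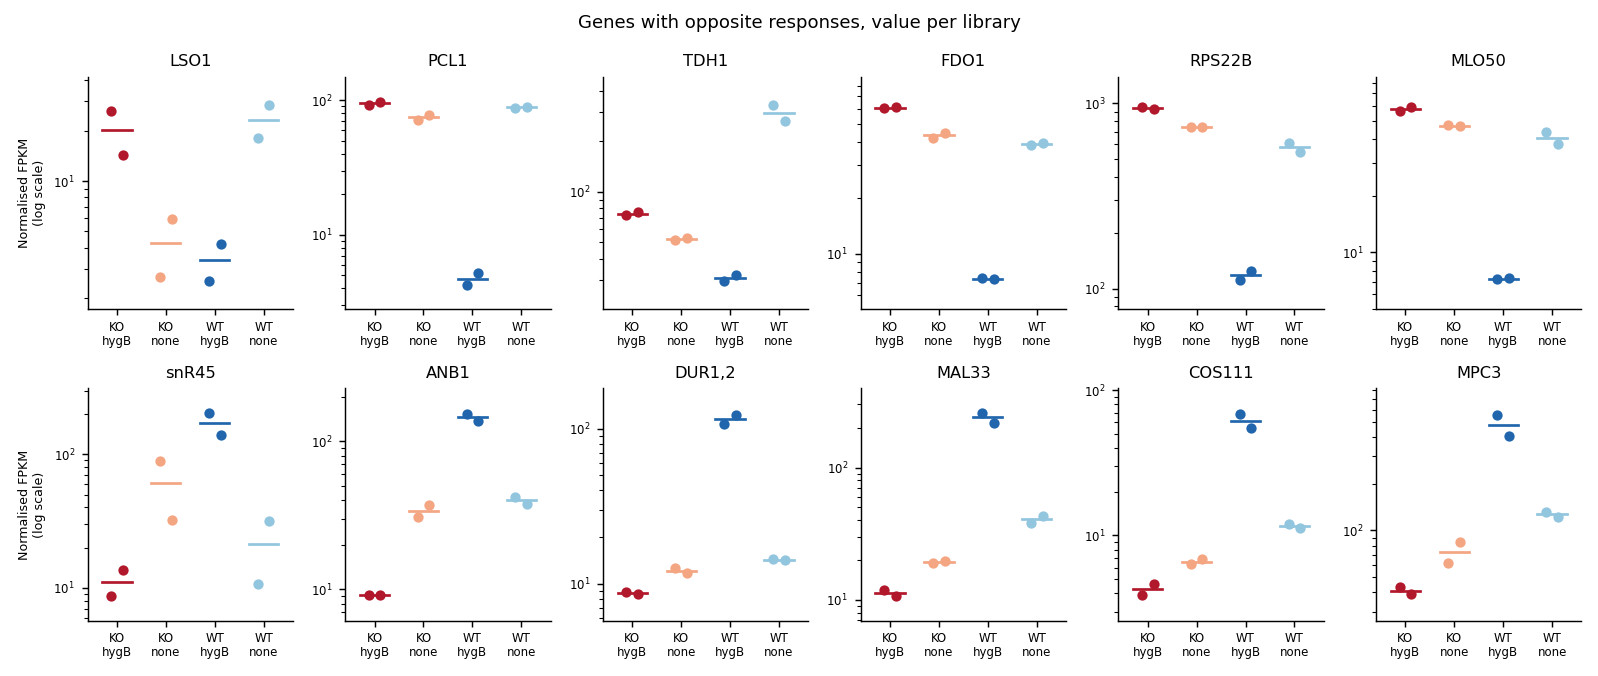
Normalised FPKM (log scale) of 12 genes with opposite responses in each of the 8 libraries, as points, with the group mean as a bar; groups run from treated and untreated Trm2KO to treated and untreated WT. In the upper row treated Trm2KO lies above untreated Trm2KO and treated WT below untreated WT, and in the lower row the order is reversed in both genotypes.

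Opposite responses were mostly small in Trm2KO, with a median size of 0.337, against 0.527 in WT. In 9 of the 324 genes both responses were at least 1 in size, and in 49 both were at least 0.5. The 9, chosen after their values were seen by this limit alone, were LSO1 and GPH1, up in Trm2KO and down in WT, and snR45, ANB1, RGS2, MIN7, YER175W-A, YOR338W and YMR031W-A, down in Trm2KO and up in WT. YER175W-A was listed at 0 in both treated Trm2KO libraries and YMR031W-A in 1 of them. RGS2, which dampens the G protein of glucose sensing, had 27.3 and 25.6 normalised FPKM in treated Trm2KO and 66.5 and 68.2 in untreated Trm2KO, against 236 and 242 in treated WT and 116 and 121 in untreated WT. The direction of the small responses depended on the scaling of the libraries. With FPKM as deposited, the median response of all genes was 0.362 in Trm2KO and 0.615 in WT, and 144 of the 324 genes kept opposite signs. All 12 genes of the plot of opposite responses kept opposite signs under every scaling tried, and 47 of the 49 genes with both responses of at least 0.5 did. Keeping the signs was not keeping the class: 3 of the 324 genes were still in it with FPKM as deposited, and 45 as TPM. With FPKM as deposited the Trm2KO response was −0.06 for DUR1,2 and −0.19 for COS111. PCL1, RPS22B, MLO50, MPC3 and snR45 kept their class in 14 of the 19 alternatives, and the other genes of the plot in 15 to 18.

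Genes whose response was larger in Trm2KO included subunits of the glycine cleavage system. GCV1, a subunit of the glycine decarboxylase, which feeds carbon units from glycine to folate, had 236 and 257 normalised FPKM in treated Trm2KO and 37.2 and 39.4 in untreated Trm2KO, against 393 and 421 in treated WT and 217 and 215 in untreated WT. Untreated Trm2KO was the low group. The response was 2.65 ± 0.06 in Trm2KO and 0.91 ± 0.06 in WT, and the Trm2KO minus WT difference was −2.47 in untreated and −0.72 in treated cells. GCV2, the P subunit of the same enzyme, had 64.1 and 71.5 in treated Trm2KO and 11.9 and 12.2 in untreated Trm2KO, against 55.9 and 69.4 in treated WT and 39.1 and 39.0 in untreated WT, with an interaction of 1.73 ± 0.15. In treated cells its libraries of the 2 genotypes overlapped. CTT1, the cytosolic catalase, and HMX1, the heme oxygenase, also rose further in Trm2KO, with responses of 1.26 ± 0.14 and 1.39 ± 0.11, against 0.44 ± 0.14 and 0.80 ± 0.11 in WT. The calls of GCV1 and GCV2 were lost with FPKM as deposited (adjusted p = 0.134 and 0.12), as were those of CTT1 (0.712) and HMX1 (0.825). CTT1 kept its class in 12 of the 19 alternatives run. The calls of CTT1 and HMX1 were also lost as TPM (adjusted p = 0.077 and 0.171), and that of HMX1 without replicate 1 of treated Trm2KO (0.0529).

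The neighbouring genes BSC1 and PRM7 fell in both genotypes and further in Trm2KO. PRM7, a pheromone-regulated membrane protein, had 3.87 and 3.19 normalised FPKM in treated Trm2KO and 66.6 and 83.7 in untreated Trm2KO, against 32.5 and 31.6 in treated WT and 94.0 and 115 in untreated WT. BSC1, which resembles the flocculin Flo11, had 5.10 and 2.72 in treated Trm2KO and 84.9 and 108 in untreated Trm2KO, against 28.9 and 29.8 in treated WT and 96.2 and 136 in untreated WT. The Trm2KO response was −4.06 ± 0.14 for PRM7 and −4.34 ± 0.27 for BSC1, against −1.67 ± 0.14 and −1.93 ± 0.27 in WT. HXT2, a high-affinity glucose transporter, had 62.4 and 60.6 in treated Trm2KO and 365 and 428 in untreated Trm2KO, against 568 and 573 in treated WT and 720 and 760 in untreated WT. Treated Trm2KO was the low group, and the interaction was −2.29 ± 0.11 (adjusted p = 2.85e-05). HEM13, an oxygen-dependent enzyme of heme synthesis, had 47.0 and 47.6 in treated Trm2KO and 118 and 119 in untreated Trm2KO, against 120 and 123 in treated WT and 137 and 129 in untreated WT, with an interaction of −1.18 ± 0.06. The interactions of BSC1, PRM7 and HXT2 were called under all 19 alternatives. That of HEM13 was not called with FPKM as deposited (adjusted p = 0.183), and the WT responses of HXT2 and HEM13 changed sign with FPKM as deposited and as TPM. HEM13 kept its class in 8 of the 19 alternatives, and its WT response was small (−0.13 ± 0.05, adjusted p = 0.038).

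Of the 94 genes called in Trm2KO only with a higher interaction, 4 with the largest interactions among named genes are described, 3 of them of carbohydrate metabolism. GAD1, glutamate decarboxylase, had 55.5 and 61.7 normalised FPKM in treated Trm2KO and 19.0 and 19.2 in untreated Trm2KO, against 26 and 25.9 in treated WT and 32.1 and 28.1 in untreated WT. TSL1, the large subunit of trehalose synthase, had 68.5 and 82.5 in treated Trm2KO and 22.1 and 21.2 in untreated Trm2KO, against 52.1 and 56.0 in treated WT and 57.2 and 41.1 in untreated WT. In each the untreated Trm2KO libraries were the lowest, and the WT libraries of TSL1 overlapped between treatments. The Trm2KO response was 1.57 ± 0.08 for GAD1 and 1.75 ± 0.16 for TSL1, with interactions of 1.77 ± 0.12 and 1.60 ± 0.23. HXK1, a hexokinase, had 177 and 178 in treated Trm2KO and 79.7 and 74.1 in untreated Trm2KO, against 224 and 206 in treated WT and 259 and 197 in untreated WT. GSY1, a glycogen synthase, had an interaction of 1.16 ± 0.29.

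Of the 121 called in Trm2KO only with a lower interaction, the unnamed reading frame YKR075C had the lowest interaction among those that met the naming rule, −2.22 ± 0.26, and the named genes that follow it are 3 membrane carriers and biotin synthase. AQR1, an exporter of amino acids and organic acids, had 71.6 and 59.4 normalised FPKM in treated Trm2KO and 160 and 164 in untreated Trm2KO, against 187 and 178 in treated WT and 175 and 182 in untreated WT. The libraries of the other 3 groups lay between 160 and 187, and the interaction was −1.32 ± 0.12. BIO2, biotin synthase, had 28.6 and 28.7 in treated Trm2KO and 64.2 and 67.2 in untreated Trm2KO, against 112 and 103 in treated WT and 99.5 and 100 in untreated WT. AAC3, the mitochondrial ADP/ATP carrier made when oxygen is low, had 15.2 and 14.0 in treated Trm2KO and 34.3 and 37.2 in untreated Trm2KO, against 29.1 and 25.5 in treated WT and 26.5 and 26.9 in untreated WT. MAL31, a maltose permease, had an interaction of −1.39 ± 0.11, and those of BIO2 and AAC3 were −1.27 ± 0.08 and −1.26 ± 0.12. A missing WT call does not show that WT did not respond, but the interaction itself was called for each of these 8 genes. With FPKM as deposited none of the 8 was called (adjusted p = 0.0843 to 0.459), while all of them were called as TPM and after quantile normalisation.

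**Figure D3:**
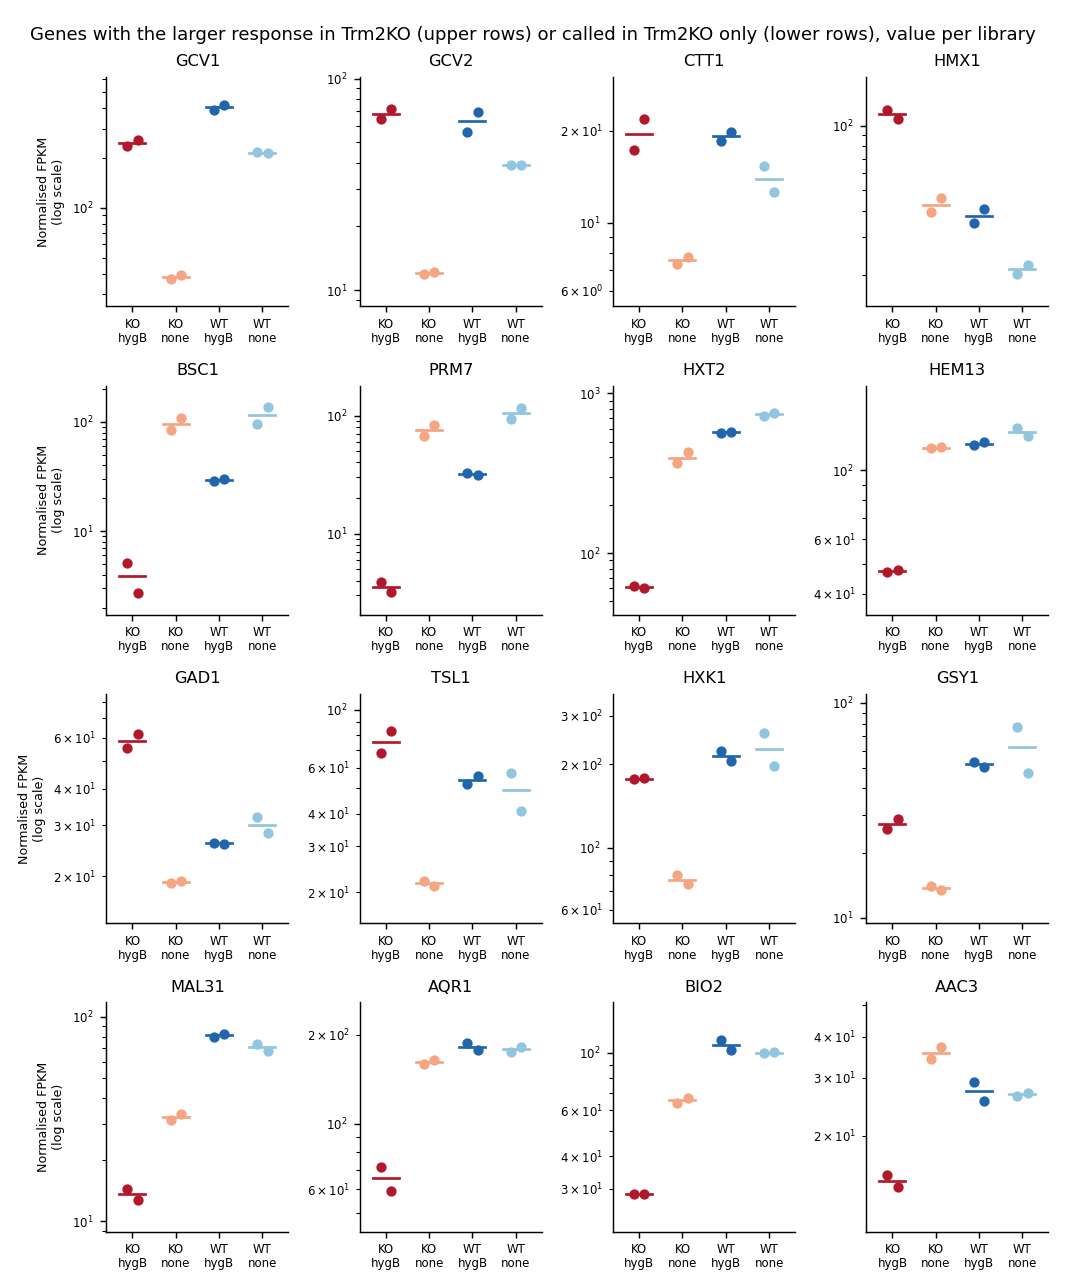
Normalised FPKM (log scale) of 8 genes with the larger response in Trm2KO (upper 2 rows) and 8 called in Trm2KO only (lower 2 rows), as points per library with the group mean as a bar. Where the response is upward, untreated Trm2KO lies below treated Trm2KO; where it is downward, treated Trm2KO is the lowest group.

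Of the genes that rose in both genotypes but less in Trm2KO, those with the lowest interactions act in nitrogen use and in transcription. PUT1, proline oxidase, had 24.6 and 30.6 normalised FPKM in treated Trm2KO and 7.77 and 6.38 in untreated Trm2KO, against 1360 and 1255 in treated WT and 6.26 and 5.57 in untreated WT. The untreated groups lay close together (0.22, adjusted p = 0.215), and the response was 1.82 ± 0.13 in Trm2KO and 7.56 ± 0.13 in WT. DAL3, of allantoin breakdown, had 9.89 and 9.25 in treated Trm2KO and 5.92 and 5.41 in untreated Trm2KO, against 212 and 221 in treated WT and 5.69 and 5.51 in untreated WT. MEP2, a high-affinity ammonium transporter, had 26.9 and 28.3 in treated Trm2KO and 20.3 and 22.1 in untreated Trm2KO, against 723 and 765 in treated WT and 31.6 and 32.4 in untreated WT. Treated WT stood alone in these genes of poor nitrogen sources. NRG1, a repressor of glucose-repressed genes, had 102 and 116 in treated Trm2KO and 20.1 and 20.1 in untreated Trm2KO, against 2362 and 2132 in treated WT and 25.4 and 22.5 in untreated WT. SMP1, a MADS-box factor of osmotic stress, had 14.9 and 15.4 in treated Trm2KO and 9.57 and 9.81 in untreated Trm2KO, against 281 and 236 in treated WT and 7.94 and 7.23 in untreated WT. The interactions ran from −5.74 ± 0.18 for PUT1 to −4.11 ± 0.13 for NRG1, and all 5 were called under each alternative.

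Bases before the start codons of these genes are shown because the genes lead the smaller-in-Trm2KO and opposite classes and include known targets of GATA factors, which act on nitrogen-catabolite genes, and of the repressor Rim101, which acts in the alkaline pH response. The sequences are from RefSeq's R64 genome and annotation; the build of the deposited table is not given in the sources used here. Each window has 120 bases, ends at least 100 bases before the start codon and was set where most matches fell within 500 bases before it. Capitals mark GATAAG on either strand in the first 4 (7 matches within 500 bases for MEP2, 5 for DAL3, 3 for DUR1,2 and 1 for PUT1) and GCCAAG on either strand in the last 2 (1 match each), and overlapping matches run together.
PUT1, chrXII:424917-425036, plus strand: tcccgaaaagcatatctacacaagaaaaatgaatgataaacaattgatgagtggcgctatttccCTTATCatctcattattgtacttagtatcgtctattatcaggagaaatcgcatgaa
DAL3, chrIX:415721-415840, minus strand: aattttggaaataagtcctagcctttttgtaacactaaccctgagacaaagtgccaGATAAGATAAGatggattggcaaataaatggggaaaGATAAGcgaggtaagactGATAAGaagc
MEP2, chrXIV:356983-357102, plus strand: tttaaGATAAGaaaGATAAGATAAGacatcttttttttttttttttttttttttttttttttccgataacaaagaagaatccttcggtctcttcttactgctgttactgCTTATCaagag
DUR1,2, chrII:642580-642699, minus strand: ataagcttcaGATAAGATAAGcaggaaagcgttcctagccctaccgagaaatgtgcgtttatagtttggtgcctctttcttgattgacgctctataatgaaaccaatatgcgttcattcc
NRG1, chrIV:543635-543754, minus strand: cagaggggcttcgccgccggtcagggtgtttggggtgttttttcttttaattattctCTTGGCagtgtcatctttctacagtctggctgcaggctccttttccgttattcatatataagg
SMP1, chrII:595088-595207, minus strand: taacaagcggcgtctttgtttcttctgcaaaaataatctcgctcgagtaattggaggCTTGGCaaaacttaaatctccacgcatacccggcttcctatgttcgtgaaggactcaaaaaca

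Among genes that fell less in Trm2KO were cell-wall and glycolytic genes with very high mRNA levels. CIS3, a mannoprotein of the cell wall, had 421 and 456 normalised FPKM in treated Trm2KO and 628 and 829 in untreated Trm2KO, against 20.7 and 27.9 in treated WT and 867 and 839 in untreated WT. ENO2, an enolase, had 3442 and 3329 in treated Trm2KO and 6824 and 8030 in untreated Trm2KO, against 193 and 284 in treated WT and 6211 and 5967 in untreated WT. Treated WT was the low group in each, and the ENO2 response was −1.13 ± 0.18 in Trm2KO and −4.69 ± 0.18 in WT. ADH1, the main alcohol dehydrogenase, GPM1, phosphoglycerate mutase, and ALD6, acetaldehyde dehydrogenase, had interactions of 3.38 ± 0.26, 3.22 ± 0.25 and 3.34 ± 0.12. CIS3 kept its class in 13 of the 19 alternatives.

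Genes called in WT only included cell-wall, cell cycle and copper genes. The unnamed reading frame YGR027W-A, at 260 and 238 normalised FPKM in treated WT, was listed at 0 in the 6 other libraries, so no fold is given. Whether RSEM divided reads between this frame and close copies was not tested, so its values are uncertain. SRL1, a cell-wall mannoprotein, had 566 and 529 normalised FPKM in treated Trm2KO and 719 and 823 in untreated Trm2KO, against 15.9 and 25.9 in treated WT and 767 and 737 in untreated WT. CTR1, the high-affinity copper importer, had 1024 and 972 in treated Trm2KO and 833 and 837 in untreated Trm2KO, against 35.4 and 39.6 in treated WT and 447 and 541 in untreated WT. CLN2, a G1 cyclin, had 105 and 111 in treated Trm2KO and 119 and 116 in untreated Trm2KO, against 4.50 and 5.74 in treated WT and 88.9 and 95.5 in untreated WT. Treated WT was far below the other groups in each, and CWP2, another wall mannoprotein, shared this order with an interaction of 3.94 ± 0.34. The metallothionein genes CUP1-1 and CUP1-2, which bind copper and which the table gives identical values, had 164 and 162 in treated Trm2KO and 172 and 272 in untreated Trm2KO, against 21543 and 19126 in treated WT and 405 and 341 in untreated WT. Their WT response was 5.77 ± 0.21 and the interaction −6.17 ± 0.29. The noncoding RUF5-1, on the other strand over 186 bases of CUP1-1, had an interaction of −5.66 ± 0.38, and the strand setting of the counting was not given, so these cannot be separated. The snoRNA snR161 had 16.8 and 26.5 in treated Trm2KO and 86.5 and 31.3 in untreated Trm2KO, against 15.3 and 32.8 in treated WT, and was listed at 0 in both untreated WT libraries.

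A small set of genes responded strongly and alike within the stated limit. Both responses were called, in the same direction and at least 1 in size in 92 genes, and in 16 of these that rose and 14 that fell the 95% interval of the interaction lay within −1 to 1. RTC3, a small protein of RNA metabolism, had 104 and 114 normalised FPKM in treated Trm2KO and 23.2 and 26.3 in untreated Trm2KO, against 360 and 366 in treated WT and 59.5 and 55.6 in untreated WT. Its responses were 2.09 ± 0.08 in Trm2KO and 2.64 ± 0.08 in WT, with an interaction of −0.54 (95% interval −0.81 to −0.28), so a shared response did not mean equal levels. HOR7, induced by hyperosmotic stress, had responses of 2.37 ± 0.13 in Trm2KO and 2.07 ± 0.13 in WT, with an interaction interval of −0.14 to 0.75. BTN2, a sorting factor for misfolded proteins, and HSP78, a mitochondrial disaggregase, rose in both, with interactions of −0.74 ± 0.11 and −0.41 ± 0.19. Among those that fell, PHM6, a phosphate-regulated gene, had 3.44 and 2.79 in treated Trm2KO and 14.9 and 15.6 in untreated Trm2KO, against 8.06 and 7.95 in treated WT and 32.0 and 38.7 in untreated WT. The PHM6 interaction was 0.02 ± 0.17, with an interval of −0.40 to 0.44. HAP4, the activator of respiratory genes, HXK2, the main hexokinase on glucose, and PLB2, a phospholipase B, fell in both, with intervals of −0.86 to −0.29, 0.29 to 0.84 and 0.47 to 0.79. The interactions of RTC3, HAP4, HXK2 and PLB2 were called here but not with FPKM as deposited or as TPM, and that of BTN2 not with FPKM as deposited.

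Gene lists are described below by counts of called interactions and by median responses, beside all genes tested, of which 30.6% were higher and 33.9% lower and whose medians were −0.0227 in Trm2KO, 0.0173 in WT and −0.033 for the interaction. Since other scalings move the median of all genes, list medians are to be read relative to it. Relative to it, the interaction medians of the lists described here kept their sign under the 3 other scalings. The counts did not hold in this way: with FPKM as deposited far fewer members were called, for example 1 higher of the ribosomal protein genes, 1 higher of the proteasome genes, 7 higher and 1 lower of the mitosis genes and 15 lower of the nitrogen genes. As TPM these lists had 8 higher and 2 lower, 22 and 3, 28 and 1, and 5 and 27.

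Of the protein synthesis genes, mRNAs of the ribosome and its factors fell less in Trm2KO, and ribosome assembly genes did not share this. Among 135 cytosolic ribosomal protein genes the interaction was higher in 111 and lower in 4, and the median response was −0.269 in Trm2KO and −0.905 in WT, where after quantile normalisation the Trm2KO median lay above that of all genes. Quantile normalisation brought the counts to 53 higher and 15 lower, the median interaction to 0.238, against 0.638, and the WT median to −0.188. RPL18B, of the large subunit, fell by 0.36 in Trm2KO and by 1.52 in WT. RPL22B, a minor paralog, went the other way, with −0.10 in Trm2KO (not called) and a rise of 1.38 in WT, and RPS14B was in the opposite class with −0.34 and 0.68, though not by sign with FPKM as deposited. Cytosolic aminoacyl-tRNA synthetases, which charge tRNAs, had 16 of 21 higher and 1 lower, with a median of −0.448 in Trm2KO and −1.05 in WT, as in GUS1, which charges glutamate (−0.42 and −1.67). Initiation factors had 20 of 29 higher, and elongation and termination factors 11 of 17 higher and 3 lower. TEF4, a subunit of elongation factor 1B, fell by 1.15 in Trm2KO and by 2.86 in WT.

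By contrast, of 139 ribosome biogenesis genes, which process rRNA and assemble subunits, 14 were higher and 52 lower in the interaction. The higher share was 10.1%, against 30.6% of all genes, while the lower share of 37.4% was near the 33.9% of all genes. The median response was −0.275 in Trm2KO and −0.0828 in WT, where after quantile normalisation the WT median lay above that of all genes. As TPM 1 was called higher and 7 were called lower. In Trm2KO 81 of the 139 were called down, whereas in WT 57 were called down and 34 up. Over all genes tested, 22.3% were called down in Trm2KO, and in WT 38.4% were called down and 40.4% up. In 18 genes (12.9% of the list, against 3.34% of all genes) the response was called in Trm2KO only. The opposite class held 9 of the list (6.47%, near the 5.03% of all genes). Among them were the helicase DBP6 (−0.28 and 0.46) and RIX1 of the large-subunit export path (−0.38 and 0.65). With FPKM as deposited the signs of DBP6 and RIX1 were not opposite, and as TPM those of DBP6 were not. The list of 69 tRNA modification genes, to which TRM2 itself belongs, had 10 higher and 34 lower, with TRM112, a partner of several methyltransferases, at −0.41 in Trm2KO and 0.44 in WT. The Trm2KO response of TRM2 was fixed by its deletion. As TPM 2 of the list were called higher and 10 lower, and with FPKM as deposited none was called.

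Proteasome genes, whose products degrade ubiquitin-tagged proteins, separated the genotypes by direction. Of 46 genes the interaction was higher in 36 and lower in 6, and the median response was 0.108 in Trm2KO and −0.723 in WT. In Trm2KO 19 were called up and 1 down, and in WT 9 were called up and 35 down. In the opposite class were 8 of the 46 (17.4%, against 5.03% of all genes): RPT2, RPT3, RPT4, RPN2, RPN5, RPN7, RPN8 and RPN11, all subunits of the regulatory particle. RPN8 had 632 and 616 normalised FPKM in treated Trm2KO and 461 and 434 in untreated Trm2KO, against 359 and 344 in treated WT and 527 and 524 in untreated WT. RPT2 had responses of 0.18 ± 0.05 in Trm2KO and −1.12 ± 0.05 in WT. The signs of RPN7, RPN8 and RPT4 were no longer opposite with FPKM as deposited, and that of RPT4 also not as TPM. Heat shock genes and chaperones had 20 of 35 higher and 6 lower, with SIS1, an Hsp40, at 0.52 in Trm2KO and −0.32 in WT, though not opposite by sign with FPKM as deposited or as TPM.

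General stress genes rose in both genotypes and further in WT, while storage carbohydrate genes divided by direction. Of 69 general stress genes, 46 were called up in Trm2KO and 53 in WT, and the interaction was higher in 10 and lower in 37, with medians of 0.651 in Trm2KO and 1.13 in WT. RCN2, an inhibitor of calcineurin, rose by 1.04 in Trm2KO and by 2.63 in WT. Among 23 genes of trehalose and glycogen metabolism, 12 were higher and 5 lower, and 14 were called up in Trm2KO, against 8 in WT. In 5 of them (21.7% of the list, against 5.03% of all genes) the responses were opposite, namely TPS2, of trehalose synthesis, and GSY2, GPH1, GIP2 and GDB1, of glycogen synthesis and breakdown. GPH1, glycogen phosphorylase, had 17.3 and 19.5 normalised FPKM in treated Trm2KO and 8.32 and 7.39 in untreated Trm2KO, against 17.6 and 13.6 in treated WT and 56.0 and 35.3 in untreated WT. TPS2 had 87.2 and 96.1 in treated Trm2KO and 47.6 and 44.3 in untreated Trm2KO, against 72.9 and 66.9 in treated WT and 146 and 111 in untreated WT. In both the untreated Trm2KO libraries were the lowest and the untreated WT libraries the highest. GSY2, GIP2 and GDB1 did not keep opposite signs with FPKM as deposited.

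Windows before GPH1, TSL1 and GSY2 are shown because these storage genes rose in Trm2KO without a rise called in WT; capitals mark AGGGG on either strand, the stress response element bound by Msn2 and Msn4, with 2, 5 and 2 matches within 500 bases. That of LSO1 is shown because LSO1 led the opposite genes that rose in Trm2KO, with the Aft1 core GCACCC, of which there was 1 match.
GPH1, chrXVI:860907-861026, plus strand: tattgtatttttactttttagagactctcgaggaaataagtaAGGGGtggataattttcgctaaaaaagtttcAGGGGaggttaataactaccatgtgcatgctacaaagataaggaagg
TSL1, chrXIII:70369-70488, plus strand: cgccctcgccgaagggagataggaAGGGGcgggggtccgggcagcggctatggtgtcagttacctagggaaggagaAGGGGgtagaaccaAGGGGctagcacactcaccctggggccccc
GSY2, chrXII:660328-660447, plus strand: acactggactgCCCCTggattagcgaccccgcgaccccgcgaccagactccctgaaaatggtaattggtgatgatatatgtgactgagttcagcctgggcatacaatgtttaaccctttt
LSO1, chrX:448878-448997, minus strand: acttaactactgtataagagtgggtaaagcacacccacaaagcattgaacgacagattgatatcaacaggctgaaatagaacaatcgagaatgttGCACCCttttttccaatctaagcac

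Motif matches are a description of letters, not of binding. AGGGG on either strand was in the 500 bases before 34.2% of the 5814 tested genes with a promoter read. The share was 45.5% of those called in Trm2KO only that were higher. It was 57.9% of the higher genes with a larger Trm2KO response, over 19 promoters. Genes called in neither genotype had shares of 61.1% (higher, 18 promoters) and 44.8% (lower, 29 promoters), so a raised share was not particular to genes with the stronger Trm2KO rise. GATGAG, an element of ribosome biogenesis promoters, was before 28.1% of all, 36.6% of the opposite genes that were lower and 40.2% of those called in Trm2KO only that were lower, against 9.09% of those called in Trm2KO only that were higher. GATAAG was before 22.8% of all and 23.8% of the genes lower and smaller in Trm2KO, and GCCAAG before 19.0% and 20.1%.

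Sugar genes differed by role. Among 31 glycolysis and fermentation genes 23 were higher and 6 lower, with a median response of −0.545 in Trm2KO and −1.36 in WT, as in PGK1 (−0.85 and −3.91). PDC5, a pyruvate decarboxylase induced when PDC1 is lacking, was an exception, with 9.60 and 9.58 normalised FPKM in treated Trm2KO and 9.44 and 11.2 in untreated Trm2KO, against 381 and 314 in treated WT and 11.6 and 12.3 in untreated WT. GLK1, glucokinase, was in the opposite class at 0.92 in Trm2KO and −0.47 in WT, though not by sign with FPKM as deposited. Of 34 genes of hexose transport and glucose sensing, 8 were higher and 18 lower. In the opposite class were 4 (11.8%, against 5.03% of all genes), all lower: MTH1, a partner of the repressor Rgt1, SNF3, a glucose sensor, HXT5 and MIG3. MTH1 had 33.5 and 29.9 in treated Trm2KO and 95.4 and 102 in untreated Trm2KO, against 216 and 216 in treated WT and 154 and 156 in untreated WT. Its responses were −1.61 ± 0.07 and 0.48 ± 0.07, opposite under every scaling, as were those of SNF3, HXT5 and MIG3. Gluconeogenic and glyoxylate genes had 4 of 28 higher and 18 lower, with MDH2, a malate dehydrogenase, at −0.98 in Trm2KO and 1.02 in WT.

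In the nitrogen and iron lists more genes were lower than higher in the interaction, which did not extend to the zinc regulon (4 higher and 4 lower of 15) or as far to copper genes (4 and 6 of 13). Among 52 genes under nitrogen catabolite repression 10 were higher and 30 lower, with 14 called up in Trm2KO and 33 in WT. GLN1, glutamine synthetase, had 432 and 400 normalised FPKM in treated Trm2KO and 880 and 952 in untreated Trm2KO, against 1676 and 1740 in treated WT and 1385 and 1298 in untreated WT, with responses of −1.14 ± 0.07 and 0.35 ± 0.07. Of 39 iron regulon genes 5 were higher and 24 lower, with a median response of 0.320 in Trm2KO and 0.956 in WT. FRE1, a ferric and cupric reductase, was a higher exception, with 475 and 462 in treated Trm2KO and 432 and 424 in untreated Trm2KO, against 29.1 and 28.2 in treated WT and 157 and 173 in untreated WT. FRE4, another reductase of this list, fell by 0.97 in Trm2KO and rose by 1.14 in WT. Of 32 genes of heme synthesis and low oxygen 6 were higher and 18 lower; beside ANB1, the sterol regulators ECM22 (−0.56 and 0.68) and UPC2 (−0.26 and 1.22) were in the opposite class, UPC2 not by sign with FPKM as deposited or as TPM. Alkaline pH and sodium genes had 2 of 27 higher and 18 lower, with ENA1, a sodium pump, at −0.23 in Trm2KO and 2.37 in WT. The sign of the small Trm2KO response of ENA1 also changed under those scalings.

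Purine and one-carbon genes were mostly higher in the interaction, and some turned in direction. Of 31 genes 23 were higher and 3 lower, and the median Trm2KO minus WT difference was −0.534 in untreated and 0.117 in treated cells. SHM2, the cytosolic serine hydroxymethyltransferase, had 198 and 213 normalised FPKM in treated Trm2KO and 132 and 151 in untreated Trm2KO, against 222 and 259 in treated WT and 634 and 631 in untreated WT. MTD1, a folate dehydrogenase, had 91.0 and 90.7 in treated Trm2KO and 64.5 and 64.8 in untreated Trm2KO, against 95.7 and 113 in treated WT and 257 and 247 in untreated WT. ADE2, of purine synthesis, had 98.4 and 99.3 in treated Trm2KO and 66.9 and 65.4 in untreated Trm2KO, against 105 and 132 in treated WT and 225 and 219 in untreated WT. In each, untreated WT was the high group, the 2 treated groups were the nearest to each other, and the responses were opposite under every scaling. BAS1, the activator of this pathway, went the other way, with −0.53 ± 0.07 in Trm2KO and 0.43 ± 0.07 in WT.

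Cell cycle genes fell in WT and were little changed in Trm2KO. Among 43 genes of mitosis and daughter separation 36 were higher and 2 lower, with a median response of −0.0426 in Trm2KO and −1.21 in WT. In Trm2KO 8 were called up and 6 down, and in WT 4 were called up and 36 down. CTS1, the chitinase of cell separation, had 1506 and 1482 normalised FPKM in treated Trm2KO and 1157 and 1132 in untreated Trm2KO, against 278 and 351 in treated WT and 1000 and 998 in untreated WT. CLB2, a mitotic cyclin, fell by 0.19 in Trm2KO (adjusted p = 0.0475) and by 2.55 in WT. Of 50 genes of G1/S and replication 33 were higher and 4 lower, with medians of −0.0557 in Trm2KO and −0.93 in WT, and the S-phase cyclin CLB5 was opposite, at 0.50 ± 0.06 and −1.82 ± 0.06. All 11 core histone genes were higher, as in HTB2, with 1112 and 1071 in treated Trm2KO and 1074 and 1148 in untreated Trm2KO, against 141 and 135 in treated WT and 800 and 831 in untreated WT. Poly(A) selection was used, and fewer cells in a phase and less RNA per cell cannot be told apart in bulk samples. Mating genes had 19 of 38 higher and 9 lower, and the G protein GPA1 was opposite, at 0.52 in Trm2KO and −0.49 in WT, but not by sign with FPKM as deposited.

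Genes of the cell surface and secretory path were mostly higher. Of 54 glycosylation genes 41 were higher and 3 lower, with medians of −0.215 in Trm2KO and −0.94 in WT, as in PMI40, phosphomannose isomerase (−0.67 and −3.33). Cell wall and integrity genes had 37 of 69 higher and 13 lower, and genes of protein folding in the endoplasmic reticulum 28 of 48 higher and 2 lower. PDI1, protein disulfide isomerase, fell by 0.40 in Trm2KO and by 2.54 in WT. Ergosterol genes had 18 of 32 higher and 5 lower. The subtelomeric seripauperin, DAN and TIR genes, by contrast, had 12 of 23 lower, with a median interaction of −1.04, and their near-identical copies make single values uncertain. DAN1, a mannoprotein of low oxygen, was at 0.64 in Trm2KO and 2.38 in WT. GPX2, a glutathione peroxidase of the opposite class, had 314 and 299 normalised FPKM in treated Trm2KO and 166 and 181 in untreated Trm2KO, against 75.1 and 76.5 in treated WT and 225 and 195 in untreated WT, among 48 redox genes of which 19 were higher and 18 lower.

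**Figure D4:**
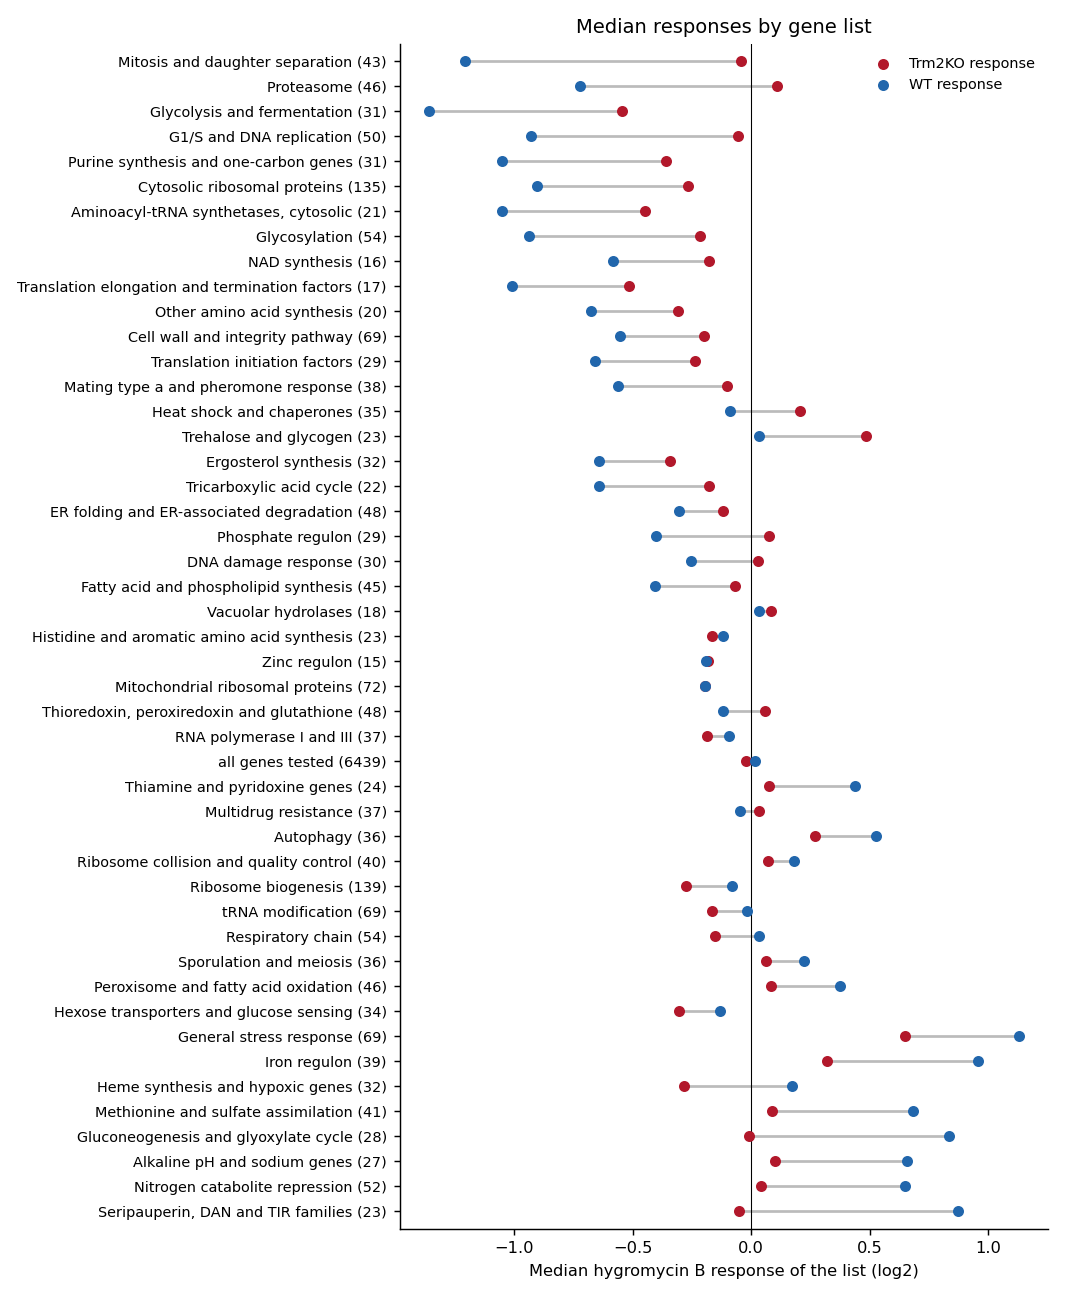
Median hygromycin B response (log2) of the tested members of each gene list of at least 15, in Trm2KO (red) and WT (blue), with list sizes in parentheses, ordered by median interaction from top to bottom. The Trm2KO median lies nearer to 0 than that of WT in most lists; for proteasome genes it is 0.108 and that of WT −0.723.

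**Figure D5:**
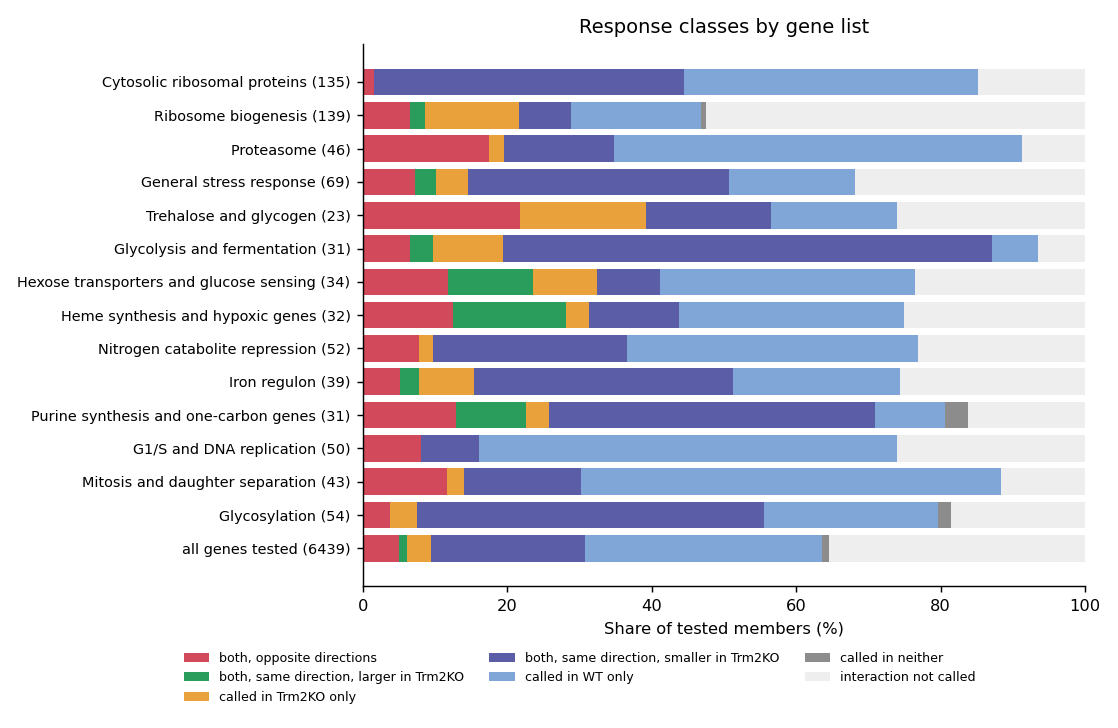
Share of tested members (%) in each response class for 14 gene lists and for all genes tested, with list sizes in parentheses. Opposite responses make up 21.7% of the trehalose and glycogen list and 17.4% of the proteasome list, against 5.03% of all genes.

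The interaction is also the Trm2KO minus WT difference with hygromycin B less that without it, and where the genotypes lay apart differed between classes. These differences share libraries with the interaction and are given as descriptions. Of the 1022 genes called in WT only that were higher, 933 were called above WT in treated Trm2KO, whereas in untreated cells 235 were called above and 157 below. Of the 130 opposite genes that were higher, 112 were called above WT in treated Trm2KO, and in untreated cells 27 were above and 54 below. Of the 194 that were lower, 177 were called below WT in treated Trm2KO, and in untreated cells 72 were above and 46 below. Not called in untreated cells were 630 of the 1022, 49 of the 130 and 76 of the 194, against 67, 15 and 15 in treated cells. These classes were thus called apart more often in treated cells, though many opposite genes also differed in untreated cells. For genes called in WT only this follows in part from how the class was defined. The shares of all tested genes called in these 2 differences are not given here. The 22 higher genes with a larger Trm2KO response had another layout: 12 were called below WT in untreated cells, and in treated cells 9 were above, 6 below and 7 not called, as GCV2 and CTT1 show. Of the 94 higher genes called in Trm2KO only, 33 were below WT in untreated cells and 67 above WT in treated cells.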

How the data were processed

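RNA was poly(A)-selected and sequenced by the authors; their processing notes, written by the submitters, name RSEM 1.3.3, STAR 2.7.8a, cutadapt 2.3 and FastQC 0.11.8, and the deposited values are FPKM per gene, normalised by the authors to transcript length and library size. Genome build, annotation and strand setting of the table are not given in the sources used here. Low FPKM times RefSeq gene length showed weak periodicity (0.252 to 0.409, where 1 is whole steps), above all 10 length shuffles in 3 of 8 libraries; whole reads were not recovered, so depth is treated as unknown and no counting interval is given. FPKM were divided by median-of-ratios factors (0.611 to 1.44), and 6439 genes averaging 1 FPKM or more were tested with limma 3.58.1 in R 4.3.3 on log2(normalised FPKM + 1), 1 mean per group, with a mean-variance trend, two-sided and with Benjamini-Hochberg adjustment over all genes; calls are at 0.05. On simulated data over 6439 genes, 50 were given a true interaction at each size and the rest none. A gene's spread was the same in all groups. The interaction test recovered 44% at 0.5, 82% at 1, 98% at 2 and 94% at 4 (log2), and 6.47% of its calls were false. These rates depend on that setting and are not estimates for the data, where 64.5% of genes were called. P-values measure only the spread between 2 samples a group. Names were matched to RefSeq for 6047 features. Named genes lead each class by interaction, reaching an average of 10 normalised FPKM in some group, with libraries that do not overlap in 1 genotype, where 13 unnamed or dubious reading frames that met this were passed over for the next named genes; from lists, the members with the smallest interaction p and those in the opposite class. The members, gene lists and naming rule were chosen with earlier results of these data known. Scaling, pseudocount, filter, variance and block alternatives and each left-out library were run.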

Additional observations from a re-analysis of the deposited data

Results flagged for a closer look

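The items below were selected because the hygromycin B response differed between Trm2KO and WT in limma's test of the interaction itself, as it did for 4152 genes, of which 324 had called responses of opposite sign. All values are interactions on the log2 scale, Trm2KO response minus WT response.

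In the opposite class the interaction was 4.49 for LSO1, 4.32 for PCL1, 3.72 for TDH1, 2.74 for FDO1, 2.63 for RPS22B and 2.62 for MLO50. It was −5.33 for snR45, −3.60 for ANB1, −3.34 for DUR1,2, −3.25 for MAL33, −2.84 for COS111 and −2.69 for MPC3.

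Among genes with the smaller response in Trm2KO it was 4.37 for CIS3, 3.56 for ENO2, 3.38 for ADH1, 3.34 for ALD6 and 3.22 for GPM1. It was −5.74 for PUT1, −4.37 for DAL3, −4.32 for SMP1, −4.13 for MEP2 and −4.11 for NRG1. Among genes with the larger response in Trm2KO it was 1.75 for GCV1, 1.73 for GCV2, 0.82 for CTT1 and 0.58 for HMX1, and −2.42 for BSC1, −2.39 for PRM7, −2.29 for HXT2 and −1.18 for HEM13.

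Of genes called in WT only, SRL1 had 4.65, CWP2 and CTR1 had 3.94 each, CLN2 had 3.82, CUP1-1 and CUP1-2 had −6.17 each and RUF5-1 had −5.66. Of genes called in Trm2KO only, GAD1 had 1.77, TSL1 had 1.60, HXK1 had 1.27 and GSY1 had 1.16, while MAL31 had −1.39, AQR1 had −1.32, BIO2 had −1.27 and AAC3 had −1.26. Among strong responses of the same direction, the interaction was −0.54 for RTC3, −0.74 for BTN2, −0.58 for HAP4, 0.56 for HXK2 and 0.63 for PLB2. None of these 5 was called with FPKM as deposited, and of them only BTN2 was called as TPM.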

How the results depend on the processing

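Of 19 alternatives, scaling moved the counts most. FPKM as deposited gave 469 interaction calls (141 higher, 328 lower; 425 shared with the 4152), with 17 genes smaller and 4 larger in Trm2KO, 8 opposite, 424 called in WT only, 9 in Trm2KO only and 7 in neither. TPM gave 2238 (870 higher, 1368 lower), with 487 smaller, 15 larger, 68 opposite and 79 called in Trm2KO only. The share of higher calls was 47.5%, against 30.1% with FPKM as deposited and 38.9% as TPM. Requiring 2-fold left 1303 (612 higher, 691 lower), with 417 smaller, 9 larger, 142 opposite, 707 in WT only, 22 in Trm2KO only and 6 in neither. Leaving out 1 library at a time, with the lone sample assumed to vary like the other groups, gave 3610 to 4317 calls, 695 to 1703 smaller, 41 to 59 larger, 127 to 435 opposite, 1716 to 2564 in WT only and 112 to 268 in Trm2KO only. The lowest of these class counts for smaller (695), larger (41), opposite (127) and Trm2KO only (112) came without Trm2KO_hygB replicate 2. With FPKM as deposited, list medians of the interaction changed sign for mitochondrial ribosomal proteins (−0.162), glycerol (−0.0747), zinc (−0.121), lysine (−0.159), histidine and aromatic amino acids (−0.101), thioredoxin and glutathione (−0.188) and vacuolar hydrolases (−0.0627). With a mean of at least 10 FPKM those of thiamine (0.0882) and sporulation (0.295) did. Without single libraries, the copper median ranged from −0.435 to 0.166, lysine from −0.0846 to 0.194 and alpha-cell genes from −0.338 to 0.0307. The near-zero interaction of PHM6 turned to −0.1614 with FPKM as deposited and −0.1419 with a pseudocount of 0.1, and ranged from −0.1054 to 0.1494 without single libraries, and that of HOR7 to −0.3558 after quantile normalisation. The cause was not tested. Same-numbered samples deviated together only weakly between groups (correlations −0.232 to 0.256), which does not exclude pairing. The highest correlation was between the untreated groups. There rDNA held 19.3% in replicate 1 and 5.36% in replicate 2 of Trm2KO, and 15.8% and 2.01% in WT. In treated samples it held 3.75% and 12.2% in Trm2KO, and 2.68% and 2.39% in WT. A fit with the replicate block gave 4145 calls, of which 4040 were shared. Depth is unknown, so precision of low genes cannot be stated.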
